A study of Mus musculus with 24 samples.

Results

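Chemokines are small secreted proteins that draw leukocytes along concentration gradients. The transcripts of 10 chemokine genes were followed here in the gastrocnemius, a muscle of the calf, of mice of 3 ages: Ccl2, Ccl5, Ccl6, Ccl8, Ccl9, Ccl11, Cxcl9, Cxcl12, Cxcl13 and Cxcl14. The genes were chosen by name, with earlier results of these data known. They are 10 of the 55385 genes counted in each library. All 10 passed the filter on low counts, as did 17803 genes in all. RNA was sequenced from 24 libraries in 6 groups of 4, with each library described as a separate sample of its group. By the methods of the study, the 5 groups that received a vector were female C57BL/6J mice. Each of these mice was injected in the tail vein with an AAV8 vector, an adeno-associated virus, at 3e8 vector genomes and was killed 14 days later. The vector carried either eGFP, the control, or murine Klotho (AAV-Kl), and in both cases the LP1 promoter limits expression to the liver.

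Young GFP mice were 3 to 6 months of age. Old GFP and old AAV-Kl mice were 21 to 24 months old, and oldest-old GFP and oldest-old AAV-Kl mice were 27 to 29 months old. A further group is labelled young and Sham. What the sham treatment was, and the sex of those mice, is not given in the sources used here. The comparisons ask how the chemokine transcripts differ with age in vector-treated mice, and whether they differ with the Klotho vector within old and within oldest-old mice.

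The depth, as reads assigned to genes, was 36415886 in the shallowest and 59733985 in the deepest library. Markers of the muscle fiber were high in every group, with a summed normalized count of 4949500 to 7479800 for 6 genes. A normalized count is the read count divided by the effective library size relative to its mean over the 24 libraries. Since the vector acts in the liver, the reads on Kl in muscle do not check its delivery. They numbered 0 to 33 per library. Several libraries stood apart in markers of other tissues. Summed keratinocyte markers were 6852 and 21278 in young GFP mice 1 and 3, 8005 in young sham mouse 4 and 4020 in old AAV-Kl mouse 2, with 10 of 10 markers past the filter. Summed hepatocyte markers were 44535 and 4640 in old GFP mice 1 and 4 and 6921 in old AAV-Kl mouse 4, against at most 1178 in the other libraries. Markers of T and NK cells were high in young sham mice 2, 3 and 4, young GFP mouse 3 and oldest-old AAV-Kl mouse 2, with summed normalized counts of 678 to 1105, against 64.7 to 293 in the other 19 libraries. In bulk RNA, fewer cells of a type and less RNA per cell cannot be told apart.

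The chemokine families are named for the spacing of their first cysteines. CC chemokines bind receptors of the Ccr family and CXC chemokines those of the Cxcr family, and several ligands share a receptor. In muscle, resident macrophages, fibroadipogenic stromal cells and endothelium make chemokines at rest, and entering leukocytes add others during injury or inflammation. Ccl2 (the monocyte chemoattractant MCP-1) acts on Ccr2. Ccl8 draws monocytes and T cells, Ccl6 and Ccl9 are products of myeloid cells that act on Ccr1, and Ccl11 (eotaxin) draws eosinophils through Ccr3. Ccl5 (RANTES) is made by activated T and NK cells and binds Ccr1 and Ccr3, among others. Cxcl9 is induced by interferon gamma and draws T cells through Cxcr3, and Cxcl13 draws B cells through Cxcr5. Cxcl12 is a stromal ligand of Cxcr4 and of the scavenging receptor Ackr3. Cxcl14 is made by many stromal and epithelial cells, and its receptor is less well settled.

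All 10 are protein-coding genes, and no exon of another annotated gene overlaps theirs in the GENCODE M21 annotation of GRCm38. Of these, 6 lie on chromosome 11. Ccl2 (chr11:82035571-82037453), Ccl11 (chr11:82057823-82062955) and Ccl8 (chr11:82115185-82116799) lie close together on its plus strand. Ccl5 (chr11:83525778-83530518), Ccl9 (chr11:83572919-83578636) and Ccl6 (chr11:83587882-83593087) lie close together on its minus strand. Cxcl9 (chr5:92321347-92328079, minus) and Cxcl13 (chr5:95956951-95961068, plus) lie on chromosome 5. Cxcl12 is at chr6:117168535-117181367 on the plus strand and Cxcl14 at chr13:56288643-56296551 on the minus strand.

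RefSeq promoter sequences of GRCm38.p6 were found for 7 of the 10 genes, all but Ccl2, Ccl5 and Ccl11. In the 250 bases before the start site, 4 motifs were searched on both strands. These were the STAT-binding GAS element (TTCNNNGAA), the core of the interferon-stimulated response element (GAAANNGAA), the kappaB motif and the TATA box (TATAAA). Of all 32851 promoters, 7.02% held the GAS letters, 7.13% the interferon response core, 7.25% the kappaB motif and 12.4% the TATA box. Matches of different motifs did not overlap in these 7. The 2 genes that were called higher with age are shown first, with 200 bases before the start site in capitals where a motif matched. Cxcl14 (chr13:56296552-56296751, minus) held the GAS letters 191 bases and the response core 172 bases before its start. Cxcl12 (chr6:117168335-117168534, plus) held none of the 4.
Cxcl14: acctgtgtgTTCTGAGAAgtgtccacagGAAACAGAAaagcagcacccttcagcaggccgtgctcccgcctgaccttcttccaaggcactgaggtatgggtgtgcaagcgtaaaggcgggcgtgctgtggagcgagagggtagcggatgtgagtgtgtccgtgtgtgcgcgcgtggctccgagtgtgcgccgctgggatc
Cxcl12: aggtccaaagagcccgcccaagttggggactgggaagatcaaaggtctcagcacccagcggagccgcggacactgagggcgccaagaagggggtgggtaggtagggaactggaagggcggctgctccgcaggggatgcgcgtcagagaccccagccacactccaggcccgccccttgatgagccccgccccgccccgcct

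Next are the promoters of Cxcl9, Ccl8 and Cxcl13, whose levels varied most between mice of a group together with Ccl5, again with motif matches in capitals. Cxcl9 (chr5:92328080-92328279, minus, 200 bases) held the response core 175 bases and a TATA box 195 bases before its start. In Ccl8 (chr11:82115065-82115184, plus, 120 bases) a TATA box began 32 bases before the start, and in Cxcl13 (chr5:95956819-95956938, plus, 120 bases) 46 bases before it.
Cxcl9: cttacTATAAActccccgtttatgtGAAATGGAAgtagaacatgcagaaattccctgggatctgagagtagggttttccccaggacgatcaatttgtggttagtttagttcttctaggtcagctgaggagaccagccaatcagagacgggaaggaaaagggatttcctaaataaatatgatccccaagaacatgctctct
Ccl8: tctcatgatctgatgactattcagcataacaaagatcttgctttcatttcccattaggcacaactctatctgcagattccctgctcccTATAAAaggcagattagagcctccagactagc
Cxcl13: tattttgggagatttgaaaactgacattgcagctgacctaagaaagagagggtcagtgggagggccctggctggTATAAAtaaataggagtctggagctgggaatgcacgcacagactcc

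The last pair is Ccl6 (chr11:83593088-83593207, minus) and Ccl9 (chr11:83578637-83578756, minus), neighbors whose transcripts moved together. Here the capitals mark the longest run of identical bases that the 120-base windows share, 13 bases that begin 55 bases before the start of Ccl6 and 14 bases before that of Ccl9. In the other 20 pairs of windows the longest shared run was 4 to 10 bases. Ccl6 held none of the 4 motifs. Ccl9 held a kappaB motif 35 bases before its start on the other strand and TATAAA 92 bases before it, not in capitals here, and also TATAAA 94 and 224 bases before it on the other strand. Motif matches are descriptions of letters only.
Ccl6: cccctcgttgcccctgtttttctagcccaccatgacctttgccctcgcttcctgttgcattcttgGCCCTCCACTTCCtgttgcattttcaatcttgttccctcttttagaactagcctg
Ccl9: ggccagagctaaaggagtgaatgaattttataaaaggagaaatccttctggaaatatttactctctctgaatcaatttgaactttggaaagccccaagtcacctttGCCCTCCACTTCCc

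Per length of exon, Cxcl14 and Ccl11 were the most abundant of the 10, each with a mean over the 24 libraries of 1080 normalized counts per kb. Cxcl14 exceeded Ccl11 in 10 of 24 libraries, so their order is not settled. Cxcl12 followed with 613 and Ccl6 with 336 normalized counts per kb. Cxcl13 (169), Ccl8 (166) and Ccl9 (117 normalized counts per kb) overlapped widely, with Cxcl13 above Ccl8 in 9 libraries and Ccl8 above Ccl9 in 10. The lowest were Ccl2 with 38.9, Ccl5 with 37.0 and Cxcl9 with 31.7 normalized counts per kb. No neighbors in this order had ranges that were apart over the 24 libraries.

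The means hide very different ranges. Cxcl12 varied 1.9-fold between the lowest and the highest library, Ccl11 2.75-fold, Cxcl14 3.66-fold, Ccl6 3.98-fold and Ccl9 4.62-fold. Ccl2 varied 7.93-fold, Cxcl9 13.7-fold, Ccl8 87-fold, Ccl5 130-fold and Cxcl13 559-fold. Counts were low for part of this second set. Ccl5 had under 10 reads in 13 of 24 libraries, and its lowest was 2 reads. Cxcl13 had under 50 reads in 10 libraries, Ccl8 and Ccl2 each in 16 and Cxcl9 in 7. The other 5 genes had at least 166 reads in every library.

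**Figure D1:**
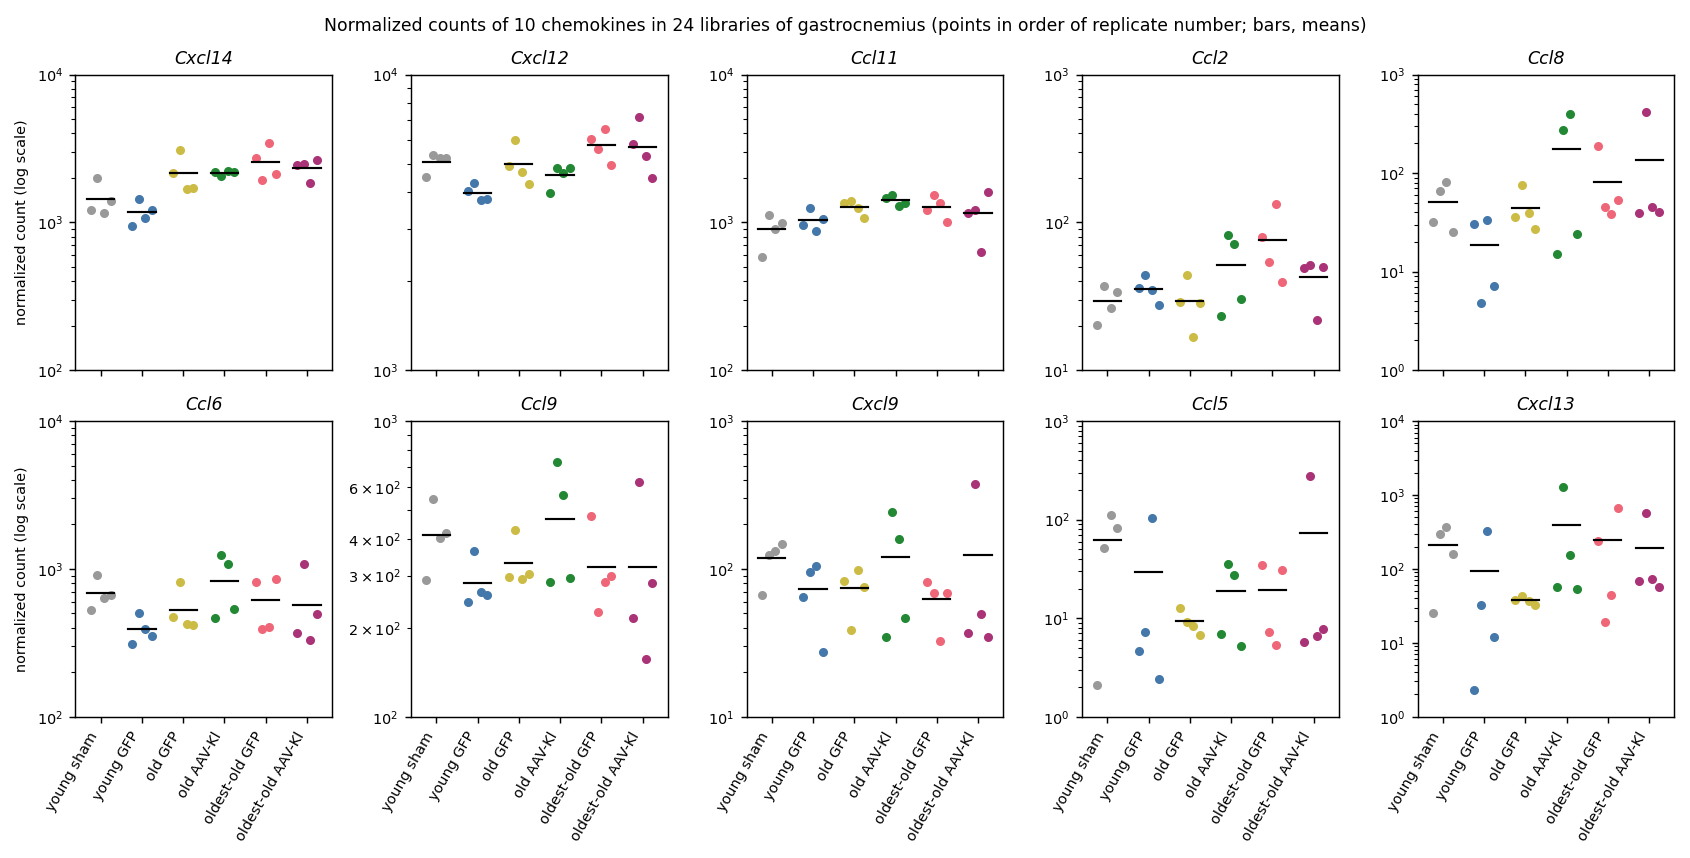
Normalized counts (vertical axis, logarithmic, with its own range in each panel) of the 10 genes in the 24 libraries, by group (horizontal axis). Each point is a library, in order of replicate number within its group, and each bar the mean of 4. Cxcl14 lies between 941 and 1440 in young GFP mice and between 1683 and 3440 in old and oldest-old GFP mice, whereas Ccl5 and Cxcl13 scatter within most groups.

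The clearest difference with age was in Cxcl14, whose level was about 1.85 times the young GFP mean in old GFP mice and 2.2 times in oldest-old GFP mice. Normalized counts of Cxcl14 were 941, 1440, 1065 and 1218 in young GFP mice 1 to 4. They were 2150, 3108, 1683 and 1706 in old GFP mice and 2739, 1935, 3440 and 2125 in oldest-old GFP mice. The young GFP libraries all lay below those of either older group, while the older groups overlapped. In edgeR's quasi-likelihood test, Cxcl14 was higher in old GFP than in young GFP mice by 0.89 on the log2 scale (SE 0.21, n = 4 per group, adjusted p = 0.0168). In oldest-old GFP mice it was higher than in young GFP mice by 1.13 on the log2 scale (SE 0.21, adjusted p = 0.00143). The difference between oldest-old and old GFP mice was 0.24 (SE 0.21, adjusted p = 0.673).

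The old call on Cxcl14 rested on single libraries. It was lost without young GFP mouse 1 (0.79 on the log2 scale, adjusted p = 0.0679), without young GFP mouse 3 (0.83, adjusted p = 0.0584) and without old GFP mouse 2 (0.67, adjusted p = 0.0729). The oldest-old call held with any 1 young GFP or oldest-old GFP library left out, and also without young GFP mice 1 and 3 together (0.92, adjusted p = 0.0491). With young sham in place of young GFP mice, whose Cxcl14 counts were 1203, 1985, 1164 and 1392, the oldest-old difference was 0.83 (adjusted p = 0.0136) and the old difference 0.59 (adjusted p = 0.109). The young sham libraries overlapped those of both older GFP groups. Without the 5 libraries with high T and NK cell markers, 1 of them a young GFP library, the old difference was 0.83 (adjusted p = 0.0738) and the oldest-old difference 1.07 (adjusted p = 0.0116). Young GFP mice 1 and 3 are those with high keratinocyte markers, and they held the lowest Cxcl14 counts of their group. Summed fibroblast markers, with 8 of 8 past the filter and none at 0, overlapped between the ages (27406 to 37772 in young GFP, 27994 to 41878 in old GFP and 27112 to 40008 in oldest-old GFP mice). The part of these tissues in the difference was not tested.

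Cxcl12 differed by less but with little scatter. Its normalized counts were 4025, 4289, 3766 and 3792 in young GFP mice 1 to 4, 4913, 6028, 4698 and 4263 in old GFP mice, and 6029, 5599, 6565 and 4952 in oldest-old GFP mice. Young GFP mice lay below all oldest-old GFP mice, and only the lowest old GFP mouse reached into the young GFP range. The oldest-old difference from young GFP mice was 0.54 on the log2 scale (SE 0.12, adjusted p = 0.00557, edgeR). The difference of old GFP from young GFP mice, 0.33 (SE 0.12), passed an unadjusted p of 0.05 but not the adjusted test (adjusted p = 0.134). This age difference depended on which young group was used. Young sham mice had Cxcl12 counts of 4498, 5332, 5225 and 5233, all above those of young GFP mice and within the range of the older groups. Against young sham, the oldest-old difference of Cxcl12 was 0.19 (adjusted p = 0.309) and the old difference was -0.03 (adjusted p = 0.931). Without young GFP mice 1 and 3 the oldest-old difference was 0.49 (adjusted p = 0.0784). Of the endothelial markers, 6 of 6 past the filter and none at 0, the summed count was 12140 to 13777 in young GFP, 12044 to 14586 in old GFP, 14361 to 16814 in oldest-old GFP and 14300 to 15296 in young sham mice. Like Cxcl12, these markers were higher in oldest-old GFP and young sham than in young GFP mice, whereas old GFP and young GFP mice overlapped in them, with medians of 12886 and 12795. Their part in the result was not tested.

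Ccl11 did not pass the test at either age. Its normalized count was 1038 ± 162 (SD, n = 4) in young GFP, 1271 ± 146 in old GFP and 1273 ± 224 in oldest-old GFP mice, with differences from young GFP mice of 0.29 on the log2 scale in each (SE 0.21; adjusted p = 0.484 and 0.373).

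Of the monocyte and macrophage chemokines, Ccl2 and Ccl8 had the larger differences in oldest-old GFP mice, and neither passed the adjusted test. Normalized counts of Ccl2 were 35.9, 44.1, 35.0 and 27.5 in young GFP mice, 28.9, 43.9, 16.7 and 28.3 in old GFP mice and 80.0, 53.7, 133 and 39.3 in oldest-old GFP mice. Oldest-old GFP mouse 3 was far the highest, and oldest-old GFP mouse 4 lay within the young and old ranges. The oldest-old difference of Ccl2 was 1.10 from young GFP mice (SE 0.41, adjusted p = 0.0747) and 1.36 from old GFP mice (SE 0.41, adjusted p = 0.239), both past an unadjusted p of 0.05. Without oldest-old GFP mouse 3 the first of these was 0.68 (adjusted p = 0.283). Against young sham mice, with Ccl2 counts of 20.2, 37.3, 26.3 and 34.0, the oldest-old difference was 1.37 and passed (adjusted p = 0.0358).

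Ccl8 had 30.1, 4.77, 33.2 and 7.17 normalized counts in young GFP mice, 35.7, 75.9, 39.0 and 27.2 in old GFP mice, and 187, 45.3, 38.8 and 53.9 in oldest-old GFP mice. Every oldest-old GFP library was above every young GFP library, and oldest-old GFP mouse 1 was far above the rest. The oldest-old difference from young GFP mice was 2.09 on the log2 scale (SE 0.99, adjusted p = 0.159). It was 1.25 without oldest-old GFP mouse 1 (adjusted p = 0.459) and 0.67 against young sham mice (adjusted p = 0.664), whose Ccl8 counts were 31.9, 66.1, 82.0 and 25.5. The old difference of Ccl8 was 1.22 (SE 0.996, adjusted p = 0.552), and that of Ccl2 was -0.26 (adjusted p = 0.797). Ccl6 stood at 389 ± 84.4 normalized counts in young GFP, 532 ± 188 in old GFP and 619 ± 255 in oldest-old GFP mice (SD, n = 4), an oldest-old difference of 0.67 (SE 0.38, adjusted p = 0.245). Ccl9 stood at 283 ± 54.8, 331 ± 64.5 and 322 ± 108 normalized counts in the same groups, an oldest-old difference of 0.19 (SE 0.36, adjusted p = 0.770). All 10 macrophage markers passed the filter and none was at 0. Their summed count was 2554 to 4136 in young GFP, 3427 to 7183 in old GFP, 4373 to 6126 in oldest-old GFP and 3534 to 6865 in young sham mice. The part of macrophages in the values of Ccl2, Ccl6, Ccl8 and Ccl9 was not tested.

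Among the lymphocyte chemokines no age difference passed the test, and mice of a group differed widely. Ccl5 had 4.63, 7.16, 104 and 2.39 normalized counts in young GFP mice, 12.8, 9.15, 8.37 and 6.79 in old GFP mice, and 34.8, 7.16, 5.39 and 30.8 in oldest-old GFP mice. Young GFP mouse 3 alone set the young mean of Ccl5. The same mouse was highest of its group for Cxcl13, with 2.31, 32.2, 328 and 11.9 normalized counts in young GFP mice 1 to 4. Cxcl13 was nearly level in old GFP mice (38.2, 43.0, 36.3 and 32.8) and spread widely in oldest-old GFP mice (236, 19.1, 44.2 and 671). The oldest-old difference of Cxcl13 from young GFP mice was 1.35 (SE 1.22, adjusted p = 0.496) and that of Ccl5 was -0.60 (SE 1.22, adjusted p = 0.788). Without young GFP mouse 3 they were 3.95 for Cxcl13 (adjusted p = 0.0856, with an unadjusted p of 0.0141) and 2.03 for Ccl5 (adjusted p = 0.380). The old differences also turned without it, from -1.34 to 1.26 for Cxcl13 and from -1.68 to 0.95 for Ccl5 (adjusted p = 0.724 and 0.802). Oldest-old GFP mice 1 and 4, the highest in both genes, also had high erythroid markers, with summed counts of 29816 and 32496 against 5719 and 4453 in mice 2 and 3. These markers, 5 of 5 past the filter and none at 0, summed to 3121 to 5006 in young GFP and 4749 to 7425 in old GFP mice, and all 5 were called higher in the comparison of the oldest-old with the young GFP group. With the group means removed, their correlation over the 24 libraries was 0.208 with Cxcl13 and -0.05 with Ccl5. Summed neutrophil markers, with 3 of 5 past the filter, were also higher in oldest-old GFP mice 1 and 4 (163 and 478) than in mice 2 and 3 (39.4 and 43.1). The correlation of the neutrophil markers, computed in the same way, was 0.622 with Cxcl13 and 0.652 with Ccl5. The part of blood and of neutrophils in these values was not tested. Cxcl9 stood at 73.0 ± 34.7 normalized counts in young GFP, 73.8 ± 25.3 in old GFP and 63.0 ± 21.3 in oldest-old GFP mice (SD, n = 4), with an oldest-old difference of -0.21 (SE 0.69, adjusted p = 0.876).

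Counted over the 10 genes, 1 (Cxcl14) was called between old GFP and young GFP mice at an adjusted p under 0.05, in a comparison that called 4.70% of all genes tested and 3.21% as higher. At an unadjusted p under 0.05 there were 2 genes, both higher, where 19.1% of all genes were called and 10.8% were higher. Between oldest-old GFP and young GFP mice, 2 genes (Cxcl12 and Cxcl14) were called, both higher, against 14.9% of all genes called and 8.80% called higher. Without adjustment 4 genes were higher at a p under 0.05, with 29.8% of all genes called and 16.9% called higher. The median difference over the 10 genes was 0.26 on the log2 scale for old and 0.61 for oldest-old GFP mice, beside medians over all genes of 0.00 and 0.03. A median of similar size, -0.62, separated young GFP from young sham mice, with 8 of the 10 genes lower and -0.03 over all genes. These medians therefore depend on which young group is used. Between AAV-Kl and GFP mice the median was 0.68 in old and -0.07 in oldest-old mice, beside 0.01 over all genes in each. Between oldest-old GFP and old GFP mice none of the 10 was called by edgeR at an adjusted p under 0.05 (0.00562% of all genes were). At an unadjusted p under 0.05 only Ccl2 was called there, where the share of all genes was 12%. DESeq2 called 0 adjusted and 2 unadjusted. The shares of all genes here and below are those of edgeR. DESeq2's own shares are not given, so its counts cannot be set against them. The comparisons with young GFP mice share those 4 libraries. Since the 10 genes were chosen with earlier results of these data known, their counts beside the shares of all genes are descriptions only.

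**Figure D2:**
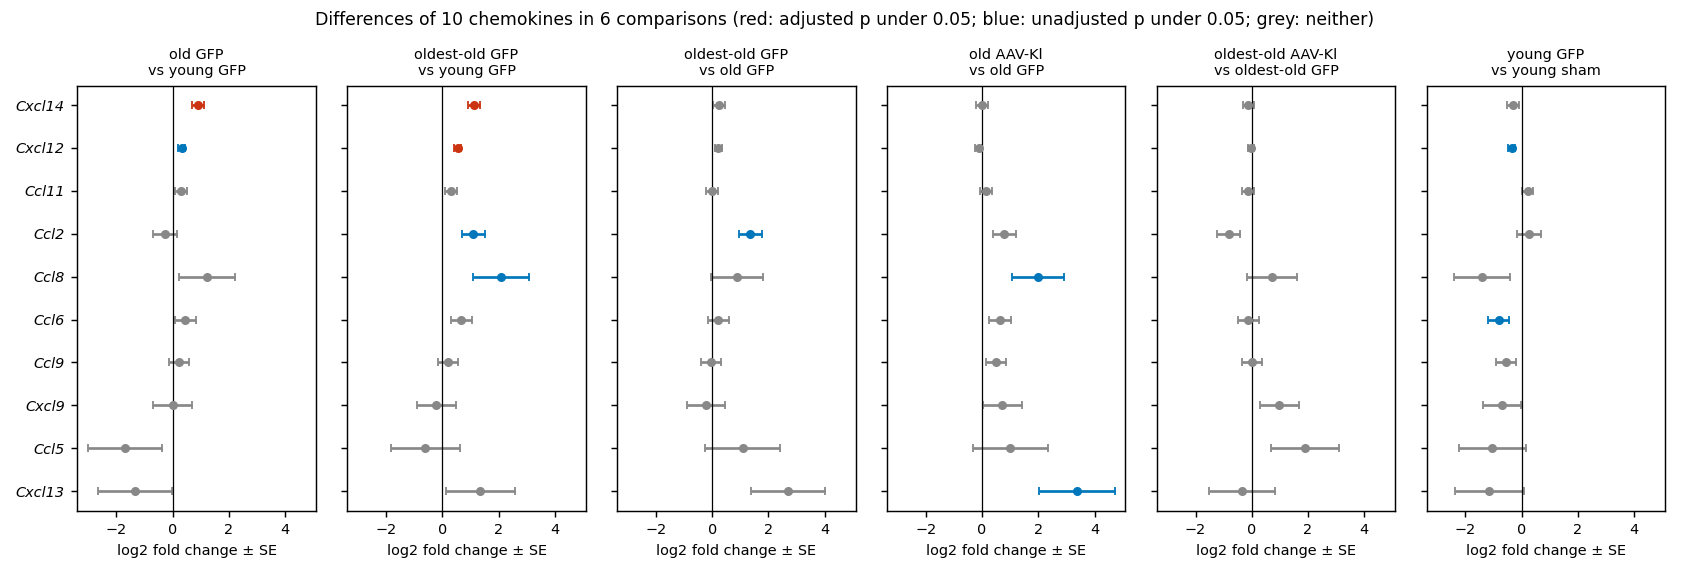
Log2 fold changes (horizontal axis) with their standard errors (bars) for the 10 genes in 6 comparisons, from edgeR's fit of 24 libraries. Red points passed the adjusted test, blue points only an unadjusted p under 0.05 and grey points neither. Red points are Cxcl14 in both comparisons with young GFP mice (0.89 and 1.13) and Cxcl12 in the second (0.54), and bars are longest for Ccl5, Cxcl13 and Ccl8.

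The Klotho vector was compared with the GFP vector within old and within oldest-old mice. In old mice none of the 10 genes was called at an adjusted p under 0.05 by edgeR, and 0% of all genes were. At an unadjusted p under 0.05, Cxcl13 and Ccl8 were higher in old AAV-Kl mice, 2 of 10 genes where 2.15% of all genes were called. DESeq2, whose own share of all genes is not given, called 0 adjusted and 2 unadjusted. Normalized counts of Cxcl13 were 57.6, 1294, 156 and 54.2 in old AAV-Kl mice 1 to 4, all above the 4 old GFP libraries. The difference was 3.37 on the log2 scale (SE 1.34, adjusted p = 1), and 1.25 without old AAV-Kl mouse 2 (adjusted p = 1). For Ccl8 the counts in old AAV-Kl mice were 15, 274, 397 and 24. Mice 2 and 3 lay above every old GFP library and mice 1 and 4 below all 4 of them. The difference of Ccl8 was 1.99 (SE 0.93, adjusted p = 1), and without old AAV-Kl mice 2 and 3 together it turned to -1.18 (adjusted p = 1).

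The same old AAV-Kl mice 2 and 3 were the highest of their group for Ccl2, Ccl5, Ccl6, Ccl9 and Cxcl9 as well. Ccl6, for example, had 468, 1235, 1078 and 537 normalized counts in old AAV-Kl mice 1 to 4, and Cxcl9 had 34.6, 242, 160 and 46.9. These 2 mice also had the highest macrophage markers of the group, with summed counts of 9707 and 6681 against 5136 and 4590. They were the highest in endothelial markers too, with 16084 and 15621 against 11236 and 11537. In B and plasma cell markers, 6 of 6 past the filter and none at 0, their sums were 1089 and 2660 against 113 and 481. Old AAV-Kl mouse 2 was also high in adipocyte markers, 6 of 6 past the filter and none at 0, with a sum of 48824 against 6389 to 8409 in the other 3 mice, and in neutrophil markers, with 308 against 42.7 to 120. The part of these cells was not tested. For the stromal chemokines the fitted differences were small. Cxcl14 had 2165 ± 79.7 normalized counts in old AAV-Kl and 2162 ± 666 in old GFP mice (SD, n = 4), a difference of 0.00 (SE 0.21, adjusted p = 1). The difference of Cxcl12 was -0.12 (SE 0.12) and that of Ccl11 0.15 (SE 0.21).

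In oldest-old mice none of the 10 genes was called between AAV-Kl and GFP by edgeR, adjusted or unadjusted. The shares of all genes were 0.0112% and 8.08%, and DESeq2 called 0 adjusted and 1 unadjusted. Here oldest-old AAV-Kl mouse 2 stood apart. Ccl5 had 5.78, 275, 6.64 and 7.68 normalized counts in oldest-old AAV-Kl mice 1 to 4, Cxcl9 had 36.6, 377, 49.3 and 34.6, and Ccl8 had 39.5, 415, 45.5 and 40.3. In the other 3 mice all 3 genes lay within the oldest-old GFP range. The fitted differences, which that mouse carries, were 1.89 for Ccl5 (SE 1.21, adjusted p = 0.707), 0.98 for Cxcl9 (SE 0.69, adjusted p = 0.733) and 0.73 for Ccl8 (SE 0.89, adjusted p = 0.851). Without that mouse they turned to -1.56, -0.65 and -0.96 (adjusted p = 0.781, 0.810 and 0.819). In it, summed T and NK cell markers were 890, against 65.4 to 154 in the other 3 mice, and macrophage markers 10039 against 2009 to 4618. Adipocyte markers summed to 34069 against 2535 to 4601, B and plasma cell markers to 1673 against 292 to 650 and neutrophil markers to 657 against 96 to 256. The part of these cells was not tested. Ccl2 went the other way, with 49.1, 51.1, 21.8 and 49.9 normalized counts in oldest-old AAV-Kl mice and a difference of -0.82 (SE 0.40, adjusted p = 0.622). Differences of Cxcl14 (-0.12, SE 0.20) and Cxcl12 (-0.03, SE 0.12) were within their errors.

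Whether the vector difference was itself different at the 2 ages was tested as an interaction, the oldest-old difference minus the old difference. None of the 10 genes passed at an adjusted p under 0.05 by edgeR, where 0.00562% of all genes did. Unadjusted, 2 were called, Ccl2 (-1.62, SE 0.58, adjusted p = 0.829) and Cxcl13 (-3.71, SE 1.77, adjusted p = 0.855), with 5.76% of all genes called. DESeq2 called 0 adjusted and 2 unadjusted. Without old AAV-Kl mice 2 and 3, Ccl2 was at -0.67 (adjusted p = 0.926) and Cxcl13 at -0.90 (adjusted p = 0.965).

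Between the young groups none of the 10 genes was called by edgeR at an adjusted p under 0.05, and 0.472% of all genes were. At an unadjusted p under 0.05, Ccl6 and Cxcl12 were lower in young GFP than in young sham mice, with 13.4% of all genes called, and DESeq2 called 0 adjusted and 2 unadjusted. The differences were -0.82 for Ccl6 (SE 0.38, adjusted p = 0.357) and -0.35 for Cxcl12 (SE 0.12, adjusted p = 0.216). Normalized counts of Ccl6 were 528, 910, 636 and 666 in young sham mice and 310, 506, 392 and 350 in young GFP mice, so that the groups did not overlap. Without the 5 libraries with high T and NK cell markers, which leaves young sham mouse 1 alone in its group and assumes that it varies like the others, the differences were -0.43 for Ccl6 and -0.15 for Cxcl12 (adjusted p = 1 for each). Young sham mice 2 to 4 were also high in Ccl5 (51.7, 112 and 83.1 normalized counts, against 2.12 in mouse 1) and in Cxcl13 (295, 370 and 161, against 25.5). The differences of young GFP from young sham mice, -1.04 for Ccl5 and -1.15 for Cxcl13, were -3.66 and -3.75 without young GFP mouse 3 (adjusted p = 0.191 and 0.195), with an unadjusted p of 0.0178 and 0.0188.

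Within groups, many of the genes moved together. After the group means were removed, the Pearson correlation of log2 CPM over the 24 libraries was over 0.6 in 16 of the 45 pairs, and under 0 in 2. The closest pair was Ccl6 and Ccl9 (r = 0.923, Spearman's rho = 0.928), the neighbors whose promoters share the run of 13 bases above. Ccl5 with Cxcl13 (r = 0.839), Ccl5 with Cxcl9 (r = 0.791) and Ccl8 with Cxcl9 (r = 0.727) came next. Cxcl14 correlated with Ccl2 at 0.619 and with Ccl11 at 0.551, but with Ccl5, Ccl8 and Cxcl13 only at 0.04, 0.01 and 0.10. Other pairs lay between, such as Ccl2 with Ccl9 (r = 0.679, rho = 0.713) and Cxcl12 with Ccl9 (r = 0.565). These values describe 24 libraries that share groups, depth and the high libraries named above.

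**Figure D3:**
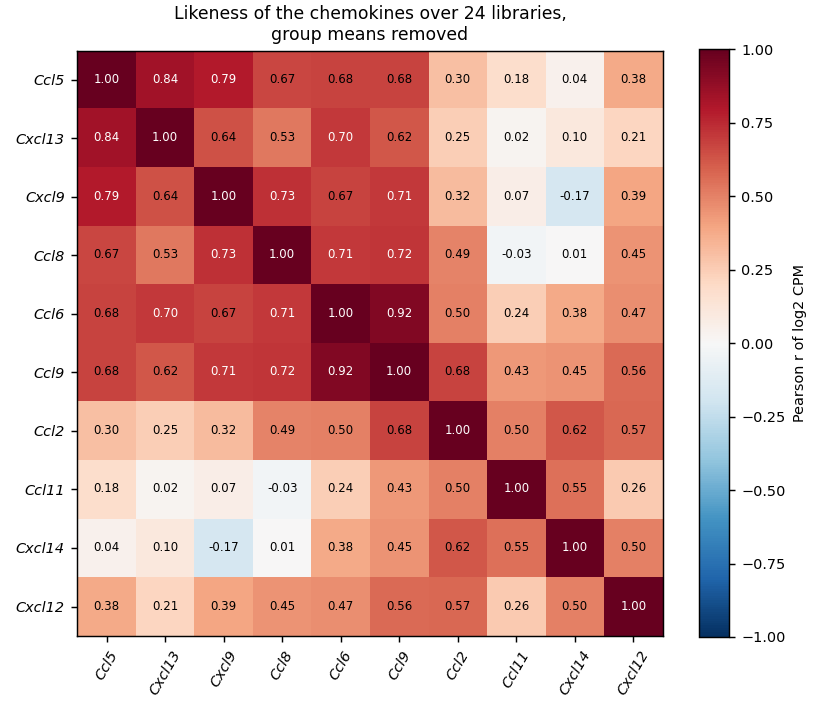
Pearson correlation of log2 CPM between the 10 genes over 24 libraries after removal of the group means, as color and number. The block of Ccl5, Cxcl13, Cxcl9, Ccl8, Ccl6 and Ccl9 ranges from 0.53 to 0.92, and Ccl11 and Cxcl14 have values near 0 with Cxcl9, Ccl8, Ccl5 and Cxcl13, apart from -0.17 between Cxcl9 and Cxcl14 and 0.18 between Ccl5 and Ccl11.

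The genes most like each chemokine were taken as the 2 highest Pearson correlations outside the 10, over the same 24 libraries. Only genes past the filter whose mean log2 CPM was not negative were searched, so genes of lower level were left out. For Ccl9 they were C1qa (r = 0.944) and C1qb (r = 0.943), complement genes of macrophages, and for Ccl6 Grn (0.902), which encodes progranulin, and Cnpy4 (0.879). Ccl5 was most like Shisa5 (0.966) and Itgal (0.958), a leukocyte integrin. Cxcl9 was most like B2m (0.937), a subunit of MHC class I, and Lgals3bp (0.929). Ccl8 went with Rtp4 (0.880) and Trim30a (0.875), both known as interferon-induced. Ccl11 went with Axl (0.942) and Pdgfra (0.938), the receptor that marks fibroadipogenic cells. For the remaining genes the values were lower or the partners less easily placed: Cxcl13 with Rock1 (0.911) and Als2cl (0.909), Ccl2 with Stx1a (0.852) and Fgl2 (0.843), Cxcl14 with Ccl24 (0.809) and Tnfsf12 (0.806), and Cxcl12 with Ltbr (0.807) and Tnc (0.789). Spearman's rho for these 20 pairs is 0.737 or more.

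Several of the genes also correlated with marker lists. With the group means removed, Ccl5 correlated at 0.954 with the mean log2 CPM of the T and NK cell markers and Cxcl13 at 0.807. Ccl9 correlated at 0.910 and Ccl6 at 0.816 with the macrophage markers, and Ccl11 at 0.868 and Cxcl14 at 0.716 with the fibroblast markers. Cxcl9 correlated with the T and NK cell markers at 0.771 and with the adipocyte markers at 0.766. Ccl5 correlated with the B and plasma cell markers at 0.836 and with the adipocyte markers at 0.733. Ccl2 correlated with the macrophage markers at 0.694 and with the fibroblast markers at 0.691. For Cxcl12 the highest value was 0.683, with the endothelial markers, and for Ccl8 it was 0.755, also with the endothelial markers. By Spearman's rho, Ccl8 was closer to the B and plasma cell (0.745) and T and NK cell markers (0.743) than to the endothelial markers (0.653). These are descriptions over the same 24 libraries.

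**Figure D4:**
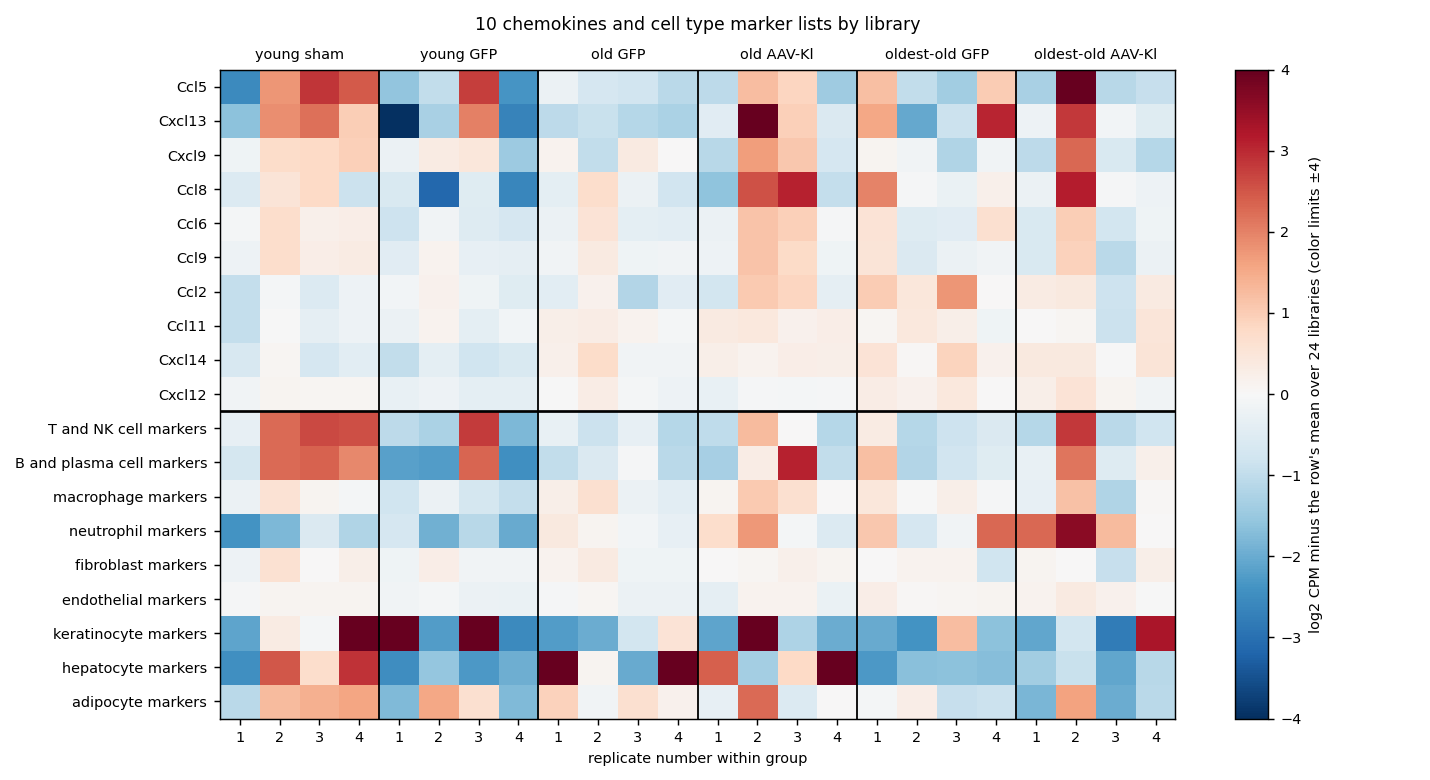
Log2 CPM of the 10 genes and mean log2 CPM of 9 marker lists (rows) in the 24 libraries (columns, by group and replicate number), each minus its mean over all libraries. Red is above and blue below the mean, and colors end at 4 above or below it. Ccl5 and Cxcl13 are red in the columns where T and NK cell markers are red, such as young sham 2 to 4, young GFP 3 and oldest-old AAV-Kl 2. Cxcl12 and Cxcl14 varied only 1.9-fold and 3.66-fold over the 24 libraries, so on this scale they are pale in every column. Cxcl12 was at its highest, 7164 normalized counts, in oldest-old AAV-Kl 2.

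Of 18 chemokine receptors listed, 14 passed the filter, and none of the 14 was called by edgeR at an adjusted p under 0.05 in any comparison. Between oldest-old GFP and young GFP mice, 3 were higher and 1 lower at an unadjusted p under 0.05, beside 29.8% of all genes called and 16.9% called higher, and the median difference was -0.21. Cxcr4, the receptor of Cxcl12, had 122 ± 35.7 normalized counts in young GFP and 98.6 ± 21.3 in oldest-old GFP mice (SD, n = 4), and Ackr3, which clears Cxcl12, had 1146 ± 145 and 1236 ± 365. Ccr2 stood at 125 ± 26.6 and 144 ± 44.2 and Ccr1 at 20.5 ± 4.43 and 30.8 ± 17.5. Cxcr3 had 12 ± 15.5 and 7.99 ± 2.82 normalized counts there. Ccr3, the receptor of Ccl11, did not pass the filter. Cxcr5, which binds Cxcl13, ranged from 20.2 to 151 in young sham and from 0 to 143 in young GFP mice, against 2.74 to 8.37 in old GFP mice. In old AAV-Kl mice Cxcr5 ranged from 2.96 to 171, a difference from old GFP mice of 3.38 (SE 1.57, adjusted p = 1). The highest library set the old AAV-Kl mean of Cxcr5, 45.4 ± 83.6 (SD, n = 4). In oldest-old AAV-Kl mice Cxcr5 ranged from 5.78 to 68.2.

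Among 27 other chemokines, 16 passed the filter, of which 3 were higher and none lower at an adjusted p under 0.05 in old GFP than in young GFP mice, beside 4.70% of all genes called and 3.21% called higher. In oldest-old GFP mice 4 were higher and none lower, beside 14.9% and 8.80% of all genes, and the median difference was 0.79, beside 0.03 over all genes. Cx3cl1, or fractalkine, the membrane-bound ligand of Cx3cr1, had 124 ± 32.3 normalized counts in young GFP, 339 ± 119 in old GFP and 563 ± 163 in oldest-old GFP mice (SD, n = 4). Its differences from young GFP mice were 1.45 (SE 0.28, adjusted p = 0.00474) and 2.17 (SE 0.28, adjusted p = 8.56e-05). Cxcl10, an interferon-induced ligand of Cxcr3 like Cxcl9, had 13.1 ± 5.49, 69.6 ± 29.4 and 80.5 ± 63.9 normalized counts in the same groups. It was higher by 2.38 in old (SE 0.51, adjusted p = 0.00956) and 2.60 in oldest-old GFP mice (SE 0.51, adjusted p = 0.00217). Cxcl1, which draws neutrophils, was higher by 2.29 in old (SE 0.63, adjusted p = 0.0390) and 2.65 in oldest-old GFP mice (SE 0.63, adjusted p = 0.00749). It had 12.7 ± 9.63, 63.2 ± 45.4 and 80.3 ± 55.1 normalized counts in young, old and oldest-old GFP mice. The oldest-old GFP range of Cxcl1, 16.2 to 138, overlapped those of young GFP (4.78 to 26.6) and young sham mice (11.7 to 23). The old GFP range, 32.8 to 130, did not. Counts were low, with 4 reads in the lowest young GFP library. Ccl24, an eotaxin like Ccl11 and the gene most like Cxcl14 among the genes searched, was higher by 1.09 in oldest-old GFP mice (SE 0.36, adjusted p = 0.0469). Its old difference was 1.16 (SE 0.36, adjusted p = 0.0726), and its counts in young sham mice, 36.1 to 125, overlapped those in oldest-old GFP mice, 63.9 to 141. Summed neutrophil markers, with 3 of 5 past the filter, were 4.78 to 24.3 in young GFP, 46.4 to 145 in old GFP and 39.4 to 478 in oldest-old GFP mice. Of the defining neutrophil markers Ly6g was at 0 in every young GFP and old GFP library, and Mpo in every old GFP library. None of the other chemokines was called at an adjusted p under 0.05 by edgeR in the Klotho comparisons. Unadjusted calls numbered 0 in old mice, and 1 was higher and 2 lower in oldest-old mice, beside 2.15% and 8.08% of all genes.

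Of 8 scavenging receptors and proteases that limit chemokines, all passed the filter. Ackr1, a decoy receptor of venular endothelium that binds many chemokines of both families, was the only one called. Its normalized count was 79.6 ± 3.1 in young GFP and 168 ± 86.5 in oldest-old GFP mice (1.09, SE 0.32, adjusted p = 0.0256). That comparison called 14.9% of all genes. Young sham mice had Ackr1 counts of 102 to 126, all above the young GFP range of 76.3 to 82.4. These counts overlapped the range of 104 to 290 among oldest-old GFP mice. The call on Ackr1 may therefore depend on which young group is used, and a test against young sham mice is not given here. Of 10 inducers of chemokines, 9 passed the filter and 3 were called higher in the comparison of oldest-old GFP with young GFP mice, beside 8.80% of all genes. These were the cytokines Il6 (2.57, SE 0.59, adjusted p = 0.00531) and Il1b (2.81, SE 0.88, adjusted p = 0.0350), and Rela, a subunit of NF-kappaB (0.25, SE 0.06, adjusted p = 0.0117). Il6 had few reads, with a normalized count of 2.40 ± 1.02 in young GFP and 15.4 ± 6.58 in oldest-old GFP mice. In old GFP mice no inducer was called at an adjusted or an unadjusted p under 0.05. Ifng, which encodes interferon gamma, did not pass the filter.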

How the data were processed

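For each library the authors deposited the table of read counts per gene that STAR (2.7.0a in the study's methods, GRCm38) wrote, as raw counts without normalization. The annotation release and the strandedness of the kit are not given in the sources used here. The unstranded counts were analyzed, since the first strand column held 49.8% to 50.4% of the reads in every library. No pair of libraries was identical (0 pairs). Ambiguous reads (5.36% to 5.9%) stayed out. Genes were fitted with edgeR 4.0.16 (filterByExpr by group, TMM, quasi-likelihood test) in a single fit of 24 libraries and 6 groups, with Benjamini-Hochberg adjustment over the 17803 genes past the filter. P-values set a difference between groups against the spread between mice within groups. That spread was estimated for each gene from all 6 groups together and drawn toward that of other genes. For genes with very uneven groups, such as Ccl5 and Cxcl13, it is not the spread of the groups compared alone. DESeq2 1.42.0 was an alternative. The fit was tested on simulated data. CPM used a prior count of 0.5. Promoters came from RefSeq, and gene symbols from GENCODE M21, which matched 55144 of 55385 genes. The 10 genes and all lists were chosen with earlier results of these data known. The text names all 10 genes, list genes called at an adjusted p under 0.05, receptors of the 10 (1 is not reported here), and the 2 genes most like each.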

Additional observations from a re-analysis of the deposited data

Results flagged for a closer look

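There were 60 combinations of a gene and a group of 4. In 14 of them a library's gap to the nearest other, as a share of the group's range, exceeded Dixon's 95% limit. For independent values of a normal distribution, chance would give about 1 in 20, or 3. The counts are skewed and the genes move together, so the 14 cannot be set against that number. In oldest-old AAV-Kl mouse 2, Ccl5 (275 normalized counts, next 7.68), Ccl8 (415, next 45.5), Cxcl9 (377, next 49.3) and Cxcl13 (569, next 73.9) were far above the rest of the group. Young GFP mouse 3 stood out in Ccl5 (104, next 7.16) and Cxcl13 (328, next 32.2). Both libraries are among the 5 with high T and NK cell markers, and the part of these cells was not tested. Old AAV-Kl mouse 2 was high in Cxcl13 (1294, next 156) and slightly low in Cxcl14 (2047, next 2193). Oldest-old GFP mouse 1 was high in Ccl8 (187, next 53.9). Old GFP mouse 2 was high in Ccl6 (810, next 473) and Ccl9 (427, next 304), and young GFP mouse 2 was high in Ccl9 (364, next 265). Low libraries were oldest-old AAV-Kl mouse 3 in Ccl2 (21.8, next 49.1) and young sham mouse 1 in Cxcl12 (4498, next 5225).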

How the results depend on the processing

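The number of the 10 genes called between old GFP and young GFP mice, 1, fell to 0 without young GFP mice 1 and 3, to 0 with young sham in place of young GFP mice and to 0 without the 5 libraries with high T and NK cell markers, and ranged from 0 to 1 with each library left out in turn. Between oldest-old GFP and young GFP mice, the number called, 2, fell to 1 without young GFP mice 1 and 3. With young sham in place of young GFP mice the genes called there changed, since Cxcl12 no longer passed and Ccl2 did. Neither number changed with DESeq2, its size factors in edgeR, no filter, the sum of the strand columns, 20 libraries or the groups compared alone. The alternatives with young sham mice, without the 5 libraries and without old AAV-Kl mice 2 and 3 were chosen after seeing the data. For the single genes with an unadjusted p under 0.05 in the fit of 24 libraries, the alternatives gave 244 values. Of these, 187 kept their direction and stayed past the threshold they had passed there, the adjusted one where they had passed it (47 values) and otherwise the unadjusted one (140 values), 55 missed that threshold and 2 reversed. The reversed values were Cxcl12 in old mice against young sham (-0.0276) and Ccl8 in old AAV-Kl mice without mice 2 and 3 (-1.18), and the cause was not tested. Among 1036 values of genes not called, 87 changed sign and 42 came under an unadjusted p of 0.05.

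Replicate numbers recur across groups, but same-numbered libraries did not deviate together. Their correlations ranged from -0.536 to 0.127, and nothing in the sources ties them to a shared animal or day. With a replicate block, 1 gene was called between old GFP and young GFP mice and 2 between oldest-old GFP and young GFP mice, as without it. Under the block the old AAV-Kl differences of Ccl8 (1.64) and Cxcl13 (2.51) no longer had an unadjusted p under 0.05. Ccl5, Cxcl13 and Ccl8 had as few as 2 to 4 reads in a library, so their differences are the least certain.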

Other observations

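Some chemokine genes outside the 10 were high in few libraries, and were picked here after their values were seen. Ccl22, which draws Ccr4-bearing T cells, ranged from 7.43 to 117 normalized counts in young sham and from 2.39 to 139 in young GFP mice, against 3.4 to 11.3 in old GFP mice. Ccr7, the receptor that guides lymphocytes to lymph nodes, ranged from 12.8 to 143, from 0 to 145 and from 1.4 to 11.9 in the same groups, and Ccl19, its ligand, from 11.7 to 72.2, from 1.19 to 75.6 and from 3.4 to 14.4. High values were not limited to young mice. In oldest-old AAV-Kl mice Ccl22 ranged from 1.9 to 178, Ccr7 from 0 to 117 and Ccl19 from 4.74 to 116. In old AAV-Kl mice the ranges were 2.08 to 63.2, 1.15 to 31.6 and 3.12 to 14.8. In oldest-old GFP mice they were 2.31 to 23.7, 2.31 to 10.4 and 2.31 to 12.2. Cxcl15, which did not pass the filter, ranged from 0 to 217 normalized counts in young sham mice and reached 19.7 at most in the other 5 groups.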
